A study of Homo sapiens with 38 samples.

Results

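The aminoacyl-tRNA synthetases load each tRNA with its amino acid, and 36 of their genes were followed here through an RNA-seq comparison and through pooled CRISPR screens. They were chosen by name: 20 genes of the cytosolic enzymes (AARS, CARS, DARS, EPRS, FARSA, FARSB, GARS, HARS, IARS, KARS, LARS, MARS, NARS, QARS, RARS, SARS, TARS, VARS, WARS and YARS) and 16 genes of the mitochondrial enzymes (AARS2, CARS2, EARS2, FARS2, HARS2, IARS2, LARS2, MARS2, NARS2, PARS2, RARS2, SARS2, TARS2, VARS2, WARS2 and YARS2). All 36 were among the 15370 genes tested in the RNA-seq, and all 36 were targeted in both screens, which held 18032 targets in Hep3B and 18039 in SNU-398.

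The RNA-seq compared 3 PSTK-KO with 3 control libraries labelled Hep3B, a human hepatocellular carcinoma (HCC) line. PSTK phosphorylates the seryl-tRNA of selenocysteine. The PSTK-KO cells expressed Cas9 and carried 1 vector with 2 guides against PSTK, and were selected with puromycin. The control genotype is labelled wild type, and the RNA-seq methods of the study call the control group vehicle. Its drug assays used controls with a control sgRNA. Whether the RNA-seq controls carried a vector is not stated in the sources used here. The screens measured guides of the TKOv3 knockout library in Cas9 cells of Hep3B and of SNU-398, another HCC line, after 14 days with Sorafenib, Regorafenib, Lenvatinib, Erastin, Abemaciclib or Palbociclib at the IC20, a dose of weak inhibition, or with vehicle, and at baseline (T0), with 2 libraries in each of 8 groups per line. The labels name the vehicle libraries only as T1. They were taken as vehicle because the methods list 8 groups and the other 7 are named.

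Each synthetase attaches 1 amino acid to its tRNAs in an ATP-dependent reaction. In human cells, cytosol and mitochondria mostly use separate enzymes, all of them encoded in the nucleus, and the mitochondrial set serves only the few proteins translated inside the organelle. GARS and KARS serve both compartments from 1 gene each. EPRS joins the activities for glutamate and proline in 1 chain, FARSA and FARSB are the subunits of 1 enzyme, and 8 cytosolic genes (EPRS, IARS, LARS, QARS, MARS, KARS, RARS and DARS) encode members of the multisynthetase complex, which is held together by the scaffold proteins AIMP1, AIMP2 and EEF1E1. SARS also charges the selenocysteine tRNA with serine, the step before PSTK acts. When uncharged tRNA accumulates, the kinase GCN2 (EIF2AK4) raises translation of the transcription factor ATF4, which activates genes of amino acid synthesis, amino acid uptake and tRNA charging.

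The RNA-seq libraries held 15404153 to 16851558 counts in genes. The markers of the labelled tissue were largely absent: 6 of 8 hepatocyte and HCC markers were under 1 CPM (counts scaled to a common library total) in both groups, among them AFP and APOA1, and the summed level of the 8 was 14.9 to 18.7 CPM in PSTK-KO and 26.7 to 31.9 CPM in control, mostly from HNF4A. Summed fibroblast markers were 39.8 to 43.6 CPM in PSTK-KO and 58.9 to 66.6 CPM in control (DCN, COL1A1 and PDGFRB were lower), and summed endothelial markers were 7.89 to 10.4 CPM in PSTK-KO and 13.4 to 13.9 CPM in control, with PECAM1 and KDR at or near 0. Blood markers stayed at 0.367 to 0.445 CPM in PSTK-KO and 0.182 to 0.389 CPM in control. The part of these shifts in the results below was not tested. The screen libraries held 11198022 to 46376708 counts in Hep3B and 11558112 to 46043970 in SNU-398, and 77.2% to 97.4% of the counts above 0 were even numbers. Over guides with at least 100 counts in the 2 libraries of a group together, the variance between those libraries was 2.53 to 4.06 times that of counting alone in 15 of the 16 pairs, and 36.2 times in the Erastin pair of SNU-398. In that pair, library 2 correlated at 0.953 with library 1, at 0.955 with vehicle library 2 of SNU-398 and at 0.929 to 0.930 with the Erastin libraries of Hep3B (log2 CPM of 64186 shared guides), where library 1 correlated at 0.867 with library 1 of Hep3B. The named calls of the SNU-398 Erastin screen are given with and without library 2. Unless stated, the other results of SNU-398, among them the test on summed counts over all its libraries, include library 2. No source says that the 2 screen libraries of a group came from separate cultures, so no p-value of the screens is shown to measure a spread between cultures. The main score of the screens sets a gene's guides against the spread of ratios over other guides and over all targets. Its p-values do not measure the spread between libraries. A second test, on counts summed per gene, uses the spread between libraries, which may be technical. The RNA-seq libraries are described as biological replicates.

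The targeted gene itself did not separate the RNA-seq groups. PSTK was at 4.003, 4.34 and 5.07 CPM in PSTK-KO and at 4.78, 5.09 and 4.14 CPM in control. The groups overlapped, and the log2 fold change was -0.06 (SE 0.18, adjusted p = 0.840, edgeR's quasi-likelihood test with Benjamini-Hochberg adjustment). The mRNA level therefore does not check the knockout label. The study assessed the knockout by Western blotting and reports it as efficient in Hep3B and other HCC lines.

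The RNA-seq asked which transcripts differ in cells without PSTK. Among the cytosolic synthetases, 10 of 20 were higher in PSTK-KO than in control, 1 was lower and 9 did not pass an adjusted p under 0.05. Of all 15370 genes tested, 15.6% were higher and 17.2% lower. The share of higher genes among the cytosolic synthetases was thus above that background, and the share of lower genes below it. The members were chosen by name with earlier results of these data known, so these shares are a description. The median log2 fold change of the cytosolic genes was 0.15, with 16 of 20 above 0, against a median at 0.00 over all genes. The mitochondrial synthetases did not share this direction: 2 of 16 were higher (12.5%), 3 were lower (18.8%) and 11 did not pass, with a median of -0.02. The groups did not overlap for 11 of the 11 cytosolic and 5 of the 5 mitochondrial genes that passed, as for 94.6% of all genes that passed. In bulk RNA, fewer cells of a type and less RNA per cell cannot be told apart.

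**Figure D1:**
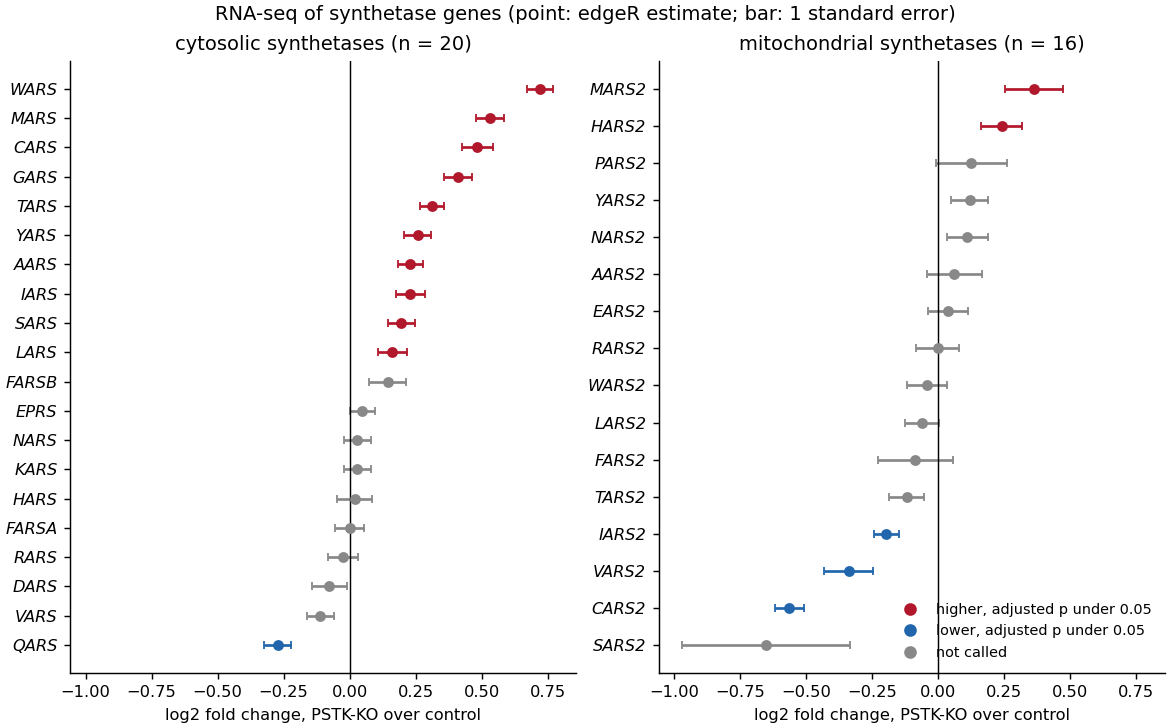
Log2 fold change of PSTK-KO over control for each cytosolic (left, n = 20) and mitochondrial (right, n = 16) synthetase gene, from 3 libraries per group. Points are edgeR estimates and bars 1 standard error, coloured by call at an adjusted p under 0.05. The cytosolic genes range from -0.27 (QARS) to 0.72 (WARS), with 10 called higher, and the mitochondrial genes from -0.65 (SARS2, not called) to 0.36 (MARS2).

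WARS, the tryptophan enzyme (ENSG00000140105, chr14:100333788-100376805, minus strand, GRCh38), showed the largest fold change of the 36. It was at 257, 262 and 249 CPM in PSTK-KO and at 156, 158 and 152 CPM in control. Every PSTK-KO library was above every control library, with means of 256 ± 6.55 CPM in PSTK-KO and 155 ± 3.27 CPM in control (SD, n = 3 each). The fold was 1.65 (log2 0.72, SE 0.05, adjusted p = 2.07e-13). WARS is also known as a gene induced by interferon gamma, apart from the amino acid response.

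MARS charges methionine tRNAs, including the initiator (chr12:57475445-57517569, plus strand). It was at 149, 156 and 153 CPM in PSTK-KO and at 107, 106 and 104 CPM in control. The groups were apart by far more than their spread, at 1.45-fold (log2 0.53, SE 0.05, adjusted p = 9.51e-10). The end of MARS overlaps 982 bases of DDIT3 on the other strand, and DDIT3 was higher in PSTK-KO (13.8 CPM, against 4.73 CPM in control). Whether the counting used strand is not given in the sources used here. The level of DDIT3 is far below that of MARS in both groups.

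CARS, the cysteine enzyme, was at 101, 106 and 105 CPM in PSTK-KO and at 77.1, 71.5 and 74.1 CPM in control, 1.40-fold higher without overlap (log2 0.48, SE 0.06, adjusted p = 4.76e-08). GARS, which charges glycine tRNA in both compartments, was at 234, 234 and 237 CPM in PSTK-KO and at 169, 174 and 188 CPM in control, 1.33-fold higher (log2 0.41, SE 0.05, adjusted p = 1.19e-07). TARS, the threonine enzyme, was at 525, 538 and 519 CPM in PSTK-KO and at 413, 427 and 437 CPM in control, 1.24-fold higher (log2 0.31, SE 0.05, adjusted p = 1.77e-06). In all 3 genes the lowest PSTK-KO library lay above the highest control library.

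Smaller differences in the same direction were found in 5 more cytosolic genes. YARS, the tyrosine enzyme, was at 248, 235 and 251 CPM in PSTK-KO and at 200.1, 201 and 214 CPM in control (log2 0.26, SE 0.05, adjusted p = 0.000138). AARS, the alanine enzyme, was at 356, 345 and 350.3 CPM in PSTK-KO and at 309, 284 and 303 CPM in control (log2 0.23, SE 0.05, adjusted p = 0.000308). Neither gene showed any overlap between groups. IARS, the isoleucine enzyme, was at 365, 398 and 374 CPM in PSTK-KO and at 321, 354 and 294 CPM in control (log2 0.23, SE 0.05, adjusted p = 0.00139). SARS, which supplies the seryl-tRNA on which PSTK acts, was at 184, 181 and 187 CPM in PSTK-KO and at 154, 162 and 166 CPM in control (1.14-fold, adjusted p = 0.00344). LARS, the leucine enzyme and a leucine sensor for mTORC1, was at 153, 161 and 158 CPM in PSTK-KO and at 129.8, 151 and 141 CPM in control (log2 0.16, SE 0.06, adjusted p = 0.0253). The groups of IARS and LARS came close without overlapping. The call of IARS ended with limma on log2(FPKM + 1) (adjusted p = 0.0878), and that of LARS with limma (0.131) and without PSTK-KO library 2 (0.109), PSTK-KO library 3 (0.0721) or control library 1 (0.160).

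**Figure D2:**
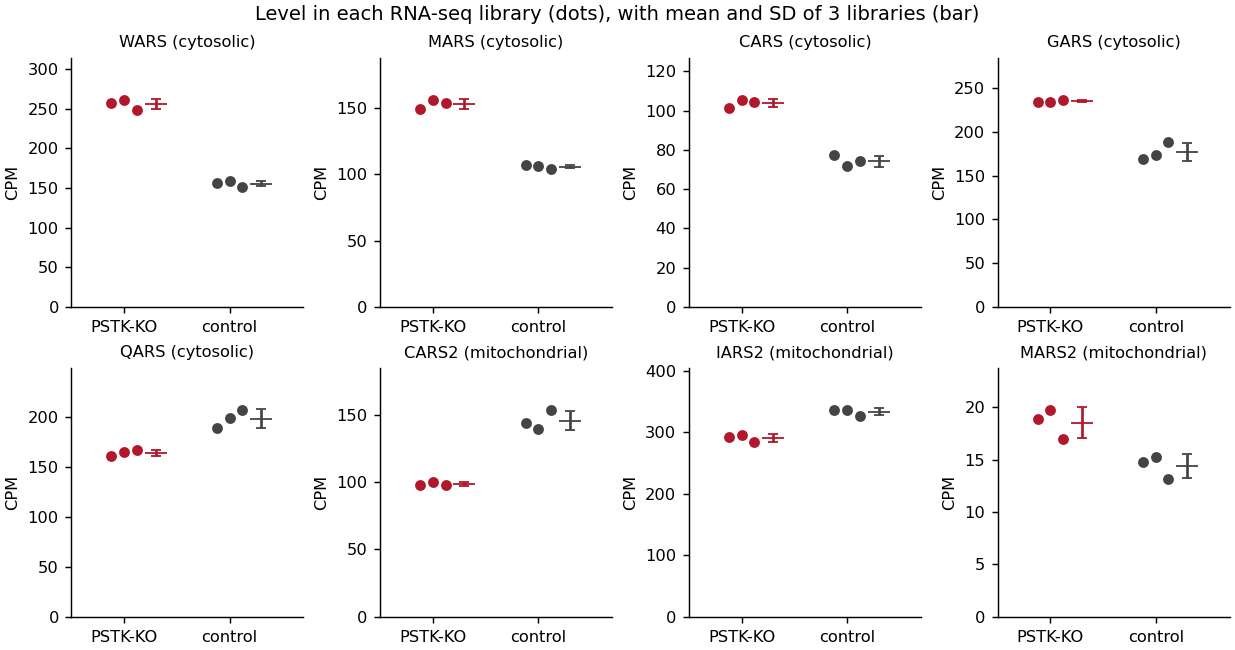
CPM (counts scaled to a common library total, axes from 0) of 8 synthetase genes in each RNA-seq library, PSTK-KO left of control, with the mean and SD of 3 libraries beside the dots. WARS, MARS, CARS, GARS and MARS2 are higher and QARS, CARS2 and IARS2 lower in PSTK-KO, and in none of the 8 do the dots of the groups overlap.

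QARS, the glutamine enzyme, went against the others. It was at 161, 165 and 167 CPM in PSTK-KO and at 189, 199 and 208 CPM in control, 0.828-fold without overlap (log2 -0.27, SE 0.05, adjusted p = 9.31e-05). VARS, the valine enzyme, was at 181, 175 and 176 CPM in PSTK-KO and at 198, 191 and 187 CPM in control. Its groups did not overlap either, but it did not pass the test (log2 -0.11, SE 0.05, adjusted p = 0.0924). The other 8 cytosolic genes (FARSB, DARS, EPRS, KARS, NARS, RARS, HARS and FARSA) had log2 fold changes of -0.08 to 0.14 with adjusted p of 0.112 to 0.998. KARS, the lysine enzyme of both compartments, was among them, unlike GARS.

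Within the multisynthetase complex, 3 of 8 genes were higher (IARS, LARS and MARS, 37.5%) and QARS was lower (12.5%), with a median log2 fold change of 0.04. Outside it, 7 of 12 were higher (58.3%) and 0 lower, with a median of 0.21. Of all genes tested, 15.6% were higher and 17.2% lower. The difference between these 2 sets was not tested. The scaffold genes had log2 fold changes of 0.01 (AIMP1, adjusted p = 0.909), -0.04 (AIMP2, adjusted p = 0.679) and 0.08 (EEF1E1, adjusted p = 0.737), and none of the 3 passed.

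Stretches of promoter are shown for the letters they share, since 6 of the cytosolic genes called higher carry a sequence related to those that ATF4 with C/EBP factors is known to bind. The letters TGATGNAA, or TTNCATCA on the other strand, were searched on both strands in 300 bases (250 before and 50 after the start) of the RefSeq promoters of GRCh38.p14. Of all 35116 promoters, 3.62% held a match. Some genes have more than 1 promoter in the table. Of the 21 promoters of 16 cytosolic synthetases, 7 held a match (33.3%), each of another gene, and of the 18 promoters of 14 mitochondrial synthetases 1 did (5.56%). Capitals mark the match, with 10 bases on each side, written on the strand of the gene.
AARS: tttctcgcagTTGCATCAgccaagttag
CARS: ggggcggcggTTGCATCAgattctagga
GARS: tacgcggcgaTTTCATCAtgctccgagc
IARS: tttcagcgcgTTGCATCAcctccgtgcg
MARS: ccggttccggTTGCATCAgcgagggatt
TARS: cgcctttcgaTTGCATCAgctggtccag
NARS: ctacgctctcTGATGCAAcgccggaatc
YARS2: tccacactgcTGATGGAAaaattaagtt

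In these lines, AARS (chr16:70289676-70289703, minus strand), CARS (chr11:3057408-3057435, minus), IARS (chr9:92293693-92293720, minus), MARS (chr12:57488054-57488081, plus) and TARS (chr5:33440957-33440984, plus) share the 8 bases TTGCATCA, and GARS (chr7:30594835-30594862, plus) differs from them inside the match. The first matched base lies at -187 from the start in AARS, -33 in GARS, -13 in IARS, -4 in MARS, -2 in CARS and +3 in TARS. NARS (chr18:57621805-57621832, minus) has its first matched base at +15, in the other orientation. Its TGATGCAA is TTGCATCA read on the other strand, so NARS, which was not called, holds the same 8 bases. YARS2 (chr12:32756077-32756104, minus) has its first matched base at -197, also in the other orientation, and its TGATGGAA differs from them inside the match. Of the 8 cytosolic genes called higher that had a promoter in the table, 6 held a match, the exceptions being WARS and SARS. Of the 7 that were not called, NARS held one, and QARS, the gene called lower, held none. A match shows that these letters are in the window and not that a factor binds there. DARS, LARS, VARS, YARS, AARS2 and VARS2 were not matched to the table.

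The mitochondrial genes differed in both directions. Per gene length and library depth (FPKM, fragments scaled by both, the authors' values), their median level in control was 8.75 FPKM, with a range of 0.659 (SARS2) to 79.3 (IARS2), against a median of 39.8 FPKM for the cytosolic genes (7.34 for CARS to 80.8 for EPRS) and 4.52 over all genes tested.

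CARS2, the mitochondrial cysteine enzyme (chr13:110641412-110713603, minus strand), was at 97.8, 99.9 and 97.7 CPM in PSTK-KO and at 144, 139 and 154 CPM in control. It was 0.677-fold in PSTK-KO with no overlap (log2 -0.56, SE 0.06, adjusted p = 6.67e-10). Its cytosolic counterpart CARS moved the other way. CARS2 is known, besides its part in charging, for making cysteine persulfide.

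IARS2 was at 292, 296 and 284 CPM in PSTK-KO and at 337, 336 and 327 CPM in control, 0.872-fold without overlap (log2 -0.20, SE 0.05, adjusted p = 0.00127), where cytosolic IARS was higher. VARS2 was at 22.2, 20.1 and 23.8 CPM in PSTK-KO and at 30.4, 27.2 and 25.9 CPM in control (0.791-fold, log2 -0.34, SE 0.09, adjusted p = 0.00503). Its call ended with limma (adjusted p = 0.0980) and without PSTK-KO library 2 (0.0547) or control library 1 (0.0550).

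The 2 mitochondrial genes that were higher were MARS2 and HARS2, the methionine and histidine enzymes. MARS2 was at 18.9, 19.8 and 16.9 CPM in PSTK-KO and at 14.7, 15.3 and 13.1 CPM in control (1.29-fold, log2 0.36, SE 0.11, adjusted p = 0.0106). HARS2 was at 39.3, 35.8 and 38.1 CPM in PSTK-KO and at 31.0, 34.0 and 30.8 CPM in control (1.18-fold, log2 0.24, SE 0.08, adjusted p = 0.0149). Both sets of groups lay close together without overlap, and both calls rested on single libraries. The call of MARS2 ended without PSTK-KO library 2 (adjusted p = 0.0622) or control library 3 (0.0544). That of HARS2 ended with DESeq2 (0.0502) and without PSTK-KO library 1 (0.0804), PSTK-KO library 3 (0.0523), control library 1 (0.0573) or control library 3 (0.0621). HARS2 and HARS run head to head and share 437 bases, so reads there cannot be assigned without strand. HARS itself did not pass (log2 0.02, adjusted p = 0.860). HARS2 also shares 639 bases with ZMAT2 on the same strand, where strand cannot assign reads. ZMAT2 was at 53.2 CPM in PSTK-KO and 47.3 CPM in control and did not pass (log2 0.17, adjusted p = 0.0688). The part of this overlap in the HARS2 call was not tested.

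SARS2, which charges both mitochondrial serine tRNAs, had the lowest FPKM of the 36. It was at 1.52, 1.53 and 1.05 CPM in PSTK-KO and at 2.64, 2.36 and 1.42 CPM in control. Its groups overlapped and it did not pass (log2 -0.65, SE 0.32, adjusted p = 0.119), though it passed without control library 3 (adjusted p = 0.0414), and it shares 349 bases with MRPS12, which is on the other strand at 69.7 CPM in PSTK-KO and 70.0 CPM in control. TARS2 was at 56.0, 57.3 and 57.1 CPM in PSTK-KO and at 64.7, 57.4 and 63.1 CPM in control (log2 -0.12, adjusted p = 0.171). YARS2 was at 45.9, 44.2 and 42.2 CPM in PSTK-KO and at 40.8, 40.0 and 41.0 CPM in control (log2 0.12, adjusted p = 0.204). Neither passed, although the groups of both genes did not overlap. The log2 fold changes were 0.11 for NARS2 (adjusted p = 0.308), -0.06 for LARS2 (0.513), 0.13 for PARS2 (0.522) and -0.09 for FARS2 (0.689). AARS2, WARS2, EARS2 and RARS2 lay between -0.04 and 0.06, with adjusted p of 0.708 to 0.986.

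The genes that work next to the synthetases were grouped in lists drawn up with earlier results of these data known, and their counts are given as a description. Of 20 genes of the amino acid response, 14 were higher in PSTK-KO (70%, against 15.6% of all genes), 4 were lower (20%, against 17.2%) and 2 did not pass, with a median log2 fold change of 0.31. ASNS, asparagine synthetase and a classic ATF4 target, was at 2.61, 3.55 and 3.21 CPM in PSTK-KO and at 0.755, 1.09 and 0.842 CPM in control (log2 1.79, adjusted p = 1.56e-05). PHGDH, the first enzyme of serine synthesis, was at 29.2, 27.9 and 28.3 CPM in PSTK-KO and at 10.4, 11.2 and 10.5 CPM in control (log2 1.41, adjusted p = 4.63e-13). ATF4 itself was at 296, 301 and 296 CPM in PSTK-KO and at 241, 236 and 249 CPM in control (log2 0.30, adjusted p = 7.10e-06). All 3 were without overlap between groups. The list was not of 1 direction: VLDLR (log2 -0.69), the proline synthesis enzyme ALDH18A1 (-0.39) and the subunits of the leucine transporter, SLC7A5 (-0.32) and SLC3A2 (-0.19), were lower.

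Of the genes that deliver, edit or export cytosolic tRNA, 2 of the 12 tested were higher (16.7%, against 15.6% of all genes). In the same list 3 were lower (25%, against 17.2%), with a median of -0.02. XPOT, the exporter of tRNA from the nucleus, was at 320.0, 345 and 327 CPM in PSTK-KO and at 256, 284 and 266 CPM in control (log2 0.30, adjusted p = 1.51e-05). GTPBP2, known in mouse for the rescue of stalled ribosomes, was also higher (log2 0.36, adjusted p = 7.02e-05). Lower were EEF1A1 (log2 -0.22), which brings charged tRNA to the ribosome, its exchange factor EEF1B2 (-0.19), and DTD2 (-0.36), an editing enzyme. EIF2AK4, the sensor of uncharged tRNA, was at 88.8, 88.7 and 87.9 CPM in PSTK-KO and at 81.2, 96.4 and 90.1 CPM in control (log2 -0.01, adjusted p = 0.906), and its groups overlapped. Of 16 partners of mitochondrial charging and translation, MTIF3, an initiation factor, was lower (7.50, 6.97 and 6.59 CPM in PSTK-KO and 10.3, 12.01 and 11.98 CPM in control, log2 -0.70, adjusted p = 0.000113) and 15 did not pass. On the selenocysteine list, EEFSEC, which delivers the selenocysteine tRNA (log2 -0.46, adjusted p = 0.000885), and TRNAU1AP, a protein associated with it (-0.31, adjusted p = 0.00201), were lower, and the other 5 of 7 did not pass. The share called lower was 6.25% of the mitochondrial partners and 28.6% of the selenocysteine list, against 17.2% of all genes.

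The screens asked which knockouts change in abundance during growth and under each inhibitor. A NormZ score was computed per target and comparison by the steps of the DrugZ method: it sums the log2 ratios of a gene's guides after scaling by their expected spread, and is negative where cells carrying the guides became rarer. A target was called at a one-sided p under 0.01, a NormZ beyond 2.33 in either direction. A NormZ of larger size means a smaller p, and these p-values are not adjusted. The guides set how much the scores can say. The members had 136 guides in Hep3B and 132 in SNU-398, 2 to 4 per gene, and 84 of 136 in Hep3B (61.8%) and 78 of 132 in SNU-398 (59.1%) had a mean count under 30 with vehicle, against 56.7% of all guides in each line. A single guide held a median of 87.8% of a member's vehicle counts in Hep3B and 76.8% in SNU-398. No guide reached 30 counts with vehicle for AARS, EPRS, GARS, PARS2, VARS2 and YARS2 in Hep3B, nor for AARS, CARS, EPRS, GARS, NARS, PARS2 and YARS2 in SNU-398, so that a loss of these under an inhibitor was hardly detectable. In Hep3B all 3 guides of AARS were at 0 in both vehicle libraries, and its inhibitor scores of 0.41 to 0.73 rest on 0 to 2 counts per guide and library.

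During 14 days with vehicle, a larger share of synthetase guides than of all guides fell below 50% of its T0 level in Hep3B. Of cytosolic guides with at least 30 counts at T0, 8 of 41 (19.5%) were at 0 with vehicle and 19 (46.3%) were under 50% of their T0 level, against 6.25% and 23.1% of all 33690 such guides. Of 28 mitochondrial guides, 0 were at 0 and 12 (42.9%) were under 50%. In SNU-398, 2 of 37 cytosolic guides (5.41%) were at 0 and 7 (18.9%) under 50%, against 1.71% and 12.4% of all 34640. Of 27 mitochondrial guides there, 1 (3.70%) was at 0 and 4 (14.8%) were under 50%. Guides to 1 gene share their target, so these shares are given without a test.

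By NormZ of vehicle over T0, 1 of 20 cytosolic and 2 of 16 mitochondrial members were called lower in Hep3B, where 1.06% of all targets were lower and 1.19% higher. In SNU-398, 2 of 20 and 1 of 16 were lower, where 1.31% of all targets were lower and 1.01% higher. None was called higher in either line. At an unadjusted p under 0.05, NARS2 was higher in Hep3B and VARS2 in SNU-398. Each was 1 of 16 mitochondrial members (6.25%), against 5.24% of all targets in Hep3B and 4.74% in SNU-398. Lower at that limit in Hep3B were 4 of 20 cytosolic (20%) and 2 of 16 mitochondrial members (12.5%), against 4.75% of all targets. In SNU-398 they were 5 of 20 (25%) and 3 of 16 (18.8%), against 5.04%. The median NormZ in Hep3B was -0.67 for cytosolic members (14 of 20 below 0) and -0.75 for mitochondrial members (13 of 16), against -0.03 over all targets. In SNU-398 it was -0.16 (11 of 20) and -0.43 (11 of 16), against 0.00. With adjustment over all targets the called members had p of 0.178 to 0.807, and none passed 0.05.

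**Figure D3:**
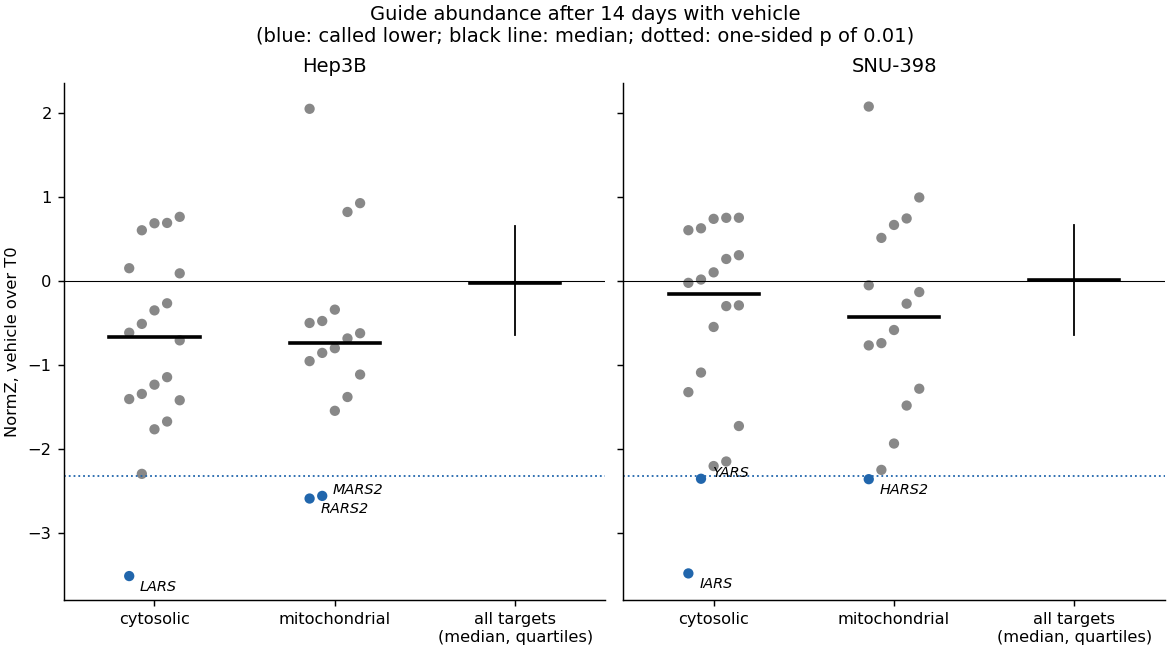
NormZ of vehicle over T0 for each synthetase gene in Hep3B (left) and SNU-398 (right), with the median of each class as a bar and the median and quartiles of all targets beside it; the dotted line is a one-sided p of 0.01. LARS, RARS2 and MARS2 in Hep3B and IARS, HARS2 and YARS in SNU-398 lie under the line, and no member reaches 2.33.

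LARS had the lowest score in Hep3B (NormZ -3.52). Its guide 1 was at 52.9 and 52.5 CPM with vehicle and at 96.9 and 95.4 CPM at T0. Guide 4 was at 2.12 and 3.97 CPM with vehicle and at 8.37 and 7.82 CPM at T0, and guide 3 was at 0 with vehicle and at 2.46 and 2.63 CPM at T0. All 3 were lower in both vehicle libraries than in both T0 libraries, and guide 2 was near 0 throughout. In SNU-398, LARS scored -2.15, which did not pass.

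RARS2, the mitochondrial arginine enzyme (NormZ -2.59), MARS2 (-2.56) and KARS (-2.30, not called) followed in Hep3B. Guide 1 of RARS2 was at 4.24 and 3.64 CPM with vehicle and at 13.9 and 12.4 CPM at T0. Guide 2 of MARS2 was at 0.733 and 0.661 CPM with vehicle and at 9.75 and 9.06 CPM at T0, and its guide 1 was at 5.21 and 3.80 CPM with vehicle and at 13.7 and 13.3 CPM at T0. Its guide 4, at 8.72 and 7.61 CPM with vehicle and 7.72 and 8.84 CPM at T0, showed no such loss. The call of RARS2 ended when the first library of both groups was left out (NormZ -2.23), and that of MARS2 without the second (-2.17) and with a pseudocount of 1 (-2.26). At the other end were NARS2, the asparagine enzyme (2.04), and SARS2 (0.92).

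In SNU-398 the lowest was IARS (NormZ -3.49). Its guide 4 was at 9.92 and 10.4 CPM with vehicle and at 24.3 and 25.1 CPM at T0, and held 58.6% of its vehicle counts. IARS scored 0.69 in Hep3B, and the difference between lines was 4.17 (adjusted p = 0.999). HARS2 (-2.36) rested on guide 1, at 37.4 and 38.0 CPM with vehicle and 68.3 and 65.5 CPM at T0, which held 98.4% of its vehicle counts. YARS (-2.36) had guide 1 at 5.004 and 5.19 CPM with vehicle and at 9.51 and 10.3 CPM at T0. The groups of these guides were apart in both libraries, but without the first library HARS2 scored -1.86 and YARS -1.96, and neither passed. MARS2 followed at -2.25, and the highest were VARS2 (2.07) and NARS2 (0.99).

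Under the 6 inhibitors, calls of synthetase genes were few. In Hep3B, 1 of 120 pairs of a cytosolic gene and a screen was lower (0.833%) and 1 was higher, and 2 of 96 mitochondrial pairs were lower (2.08%), where 1.77% of all pairs of a target and a screen were lower and 0.824% higher. In SNU-398, 5 of 120 cytosolic pairs (4.17%) and 3 of 96 mitochondrial pairs (3.13%) were lower, where 1.59% of all pairs were lower and 0.854% higher. No member was called higher in SNU-398 by NormZ. At an unadjusted p under 0.05, 2 cytosolic and 4 mitochondrial pairs were higher there (1.67% and 4.17%, against 4.41% of all pairs), and 15 and 9 were lower (12.5% and 9.38%, against 5.35% of all pairs). In Hep3B at that limit, 4 cytosolic pairs (3.33%) and 11 mitochondrial pairs (11.5%) were lower, against 5.74% of all pairs. Higher there were 3 cytosolic pairs (2.5%) and 1 mitochondrial pair (1.04%), against 4.10% of all pairs. The 5 cytosolic pairs called lower in SNU-398 came from WARS and MARS. All 6 inhibitors of a line were set against the same 2 vehicle libraries, so the pairs are not independent. With adjustment over all targets, the called pairs had p of 0.115 to 0.923.

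**Figure D4:**
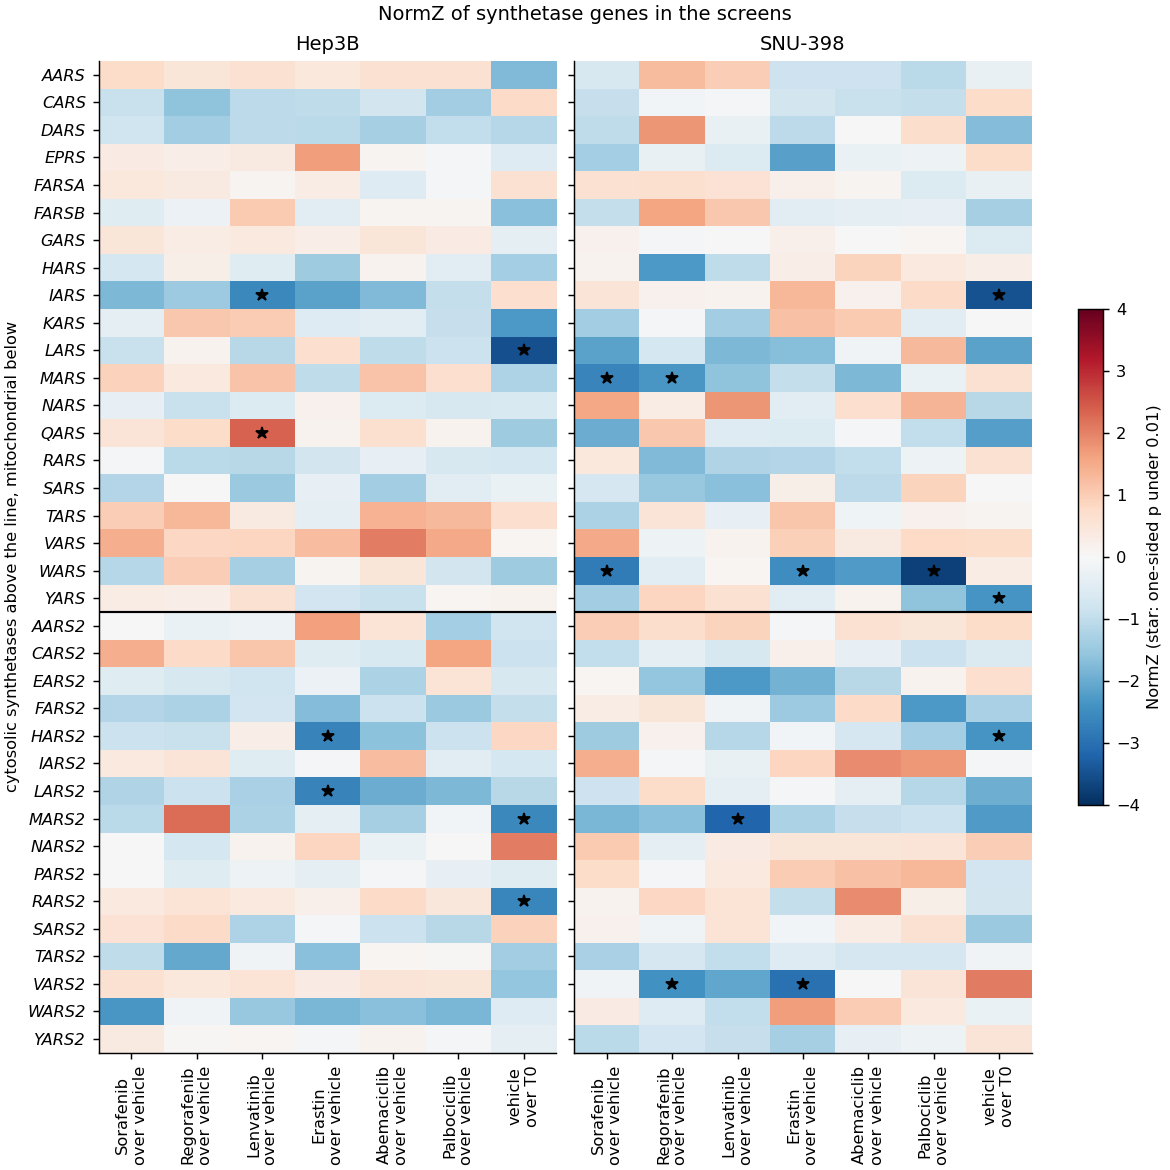
NormZ of the 36 synthetase genes (rows, cytosolic above the line) in each comparison (columns), Hep3B left and SNU-398 right; blue is negative and red positive, and stars mark a one-sided p under 0.01. The starred inhibitor screens are 4 in Hep3B (IARS and QARS with Lenvatinib, HARS2 and LARS2 with Erastin) and 8 in SNU-398 (WARS in 3, MARS in 2, VARS2 in 2, MARS2 in 1).

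WARS had the lowest inhibitor score of the 36 genes. In SNU-398 its NormZ was -3.73 with Palbociclib, -2.79 with Sorafenib and -2.47 with Erastin, and -2.25 with Abemaciclib, which did not pass, while Lenvatinib gave 0.08 and Regorafenib -0.42. Guide 1 carried 71.7% of the vehicle counts. It was at 2.73 and 3.28 CPM with Palbociclib, at 3.49 and 3.70 CPM with Sorafenib and at 11.3 and 12.9 CPM with Lenvatinib, against 8.64 and 8.13 CPM with vehicle. With Erastin it was at 2.56 CPM in library 1 and at 7.52 CPM in library 2, the library that stands apart, and without library 2 the score was -2.19 and did not pass. The other 3 guides were at no more than 1.90 CPM with vehicle, and among guides with a mean vehicle count of at least 30 the 3 scores were -2.18, -1.07 and -0.87, none of which passed. In Hep3B, WARS had 1 guide with counts with vehicle and scores of -1.33 to 0.98. That guide was at 0.0890 and 0.303 CPM with Sorafenib and at 0.749 and 0.165 CPM with Lenvatinib, against 11.6 and 10.3 CPM with vehicle, so its counts nearly vanished with both inhibitors while the scores over 4 guides (-1.15 and -1.33) did not pass. The difference between lines with Palbociclib was 2.99 (adjusted p = 0.953).

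MARS was lower in SNU-398 with Sorafenib (NormZ -2.65) and Regorafenib (-2.33). Guides 1 and 3 were lower than with vehicle under both inhibitors, and guide 2 fell further with Sorafenib than with Regorafenib. Guide 2 was at 2.07 and 2.37 CPM with Sorafenib and at 8.90 and 6.96 CPM with Regorafenib, against 13.1 and 8.82 CPM with vehicle. Guide 1 was at 1.60 and 1.99 CPM with Sorafenib and 1.11 and 1.15 CPM with Regorafenib, against 4.28 and 4.67 CPM with vehicle. Guide 3 was at 5.65 and 2.85 CPM with Sorafenib and at 2.74 and 2.73 CPM with Regorafenib, against 6.19 and 9.52 CPM with vehicle. These 3 guides were lower in every library of both inhibitors than in either vehicle library, with 1 exception, guide 2 in the first Regorafenib library (8.90 CPM, against 8.82 CPM in vehicle library 2). With a pseudocount of 1 neither call held (-2.32 and -1.95), and the Regorafenib call also ended without the second libraries (-1.96) and among guides of at least 30 counts (-1.95). In Hep3B, MARS scored -1.01 to 1.13.

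**Figure D5:**
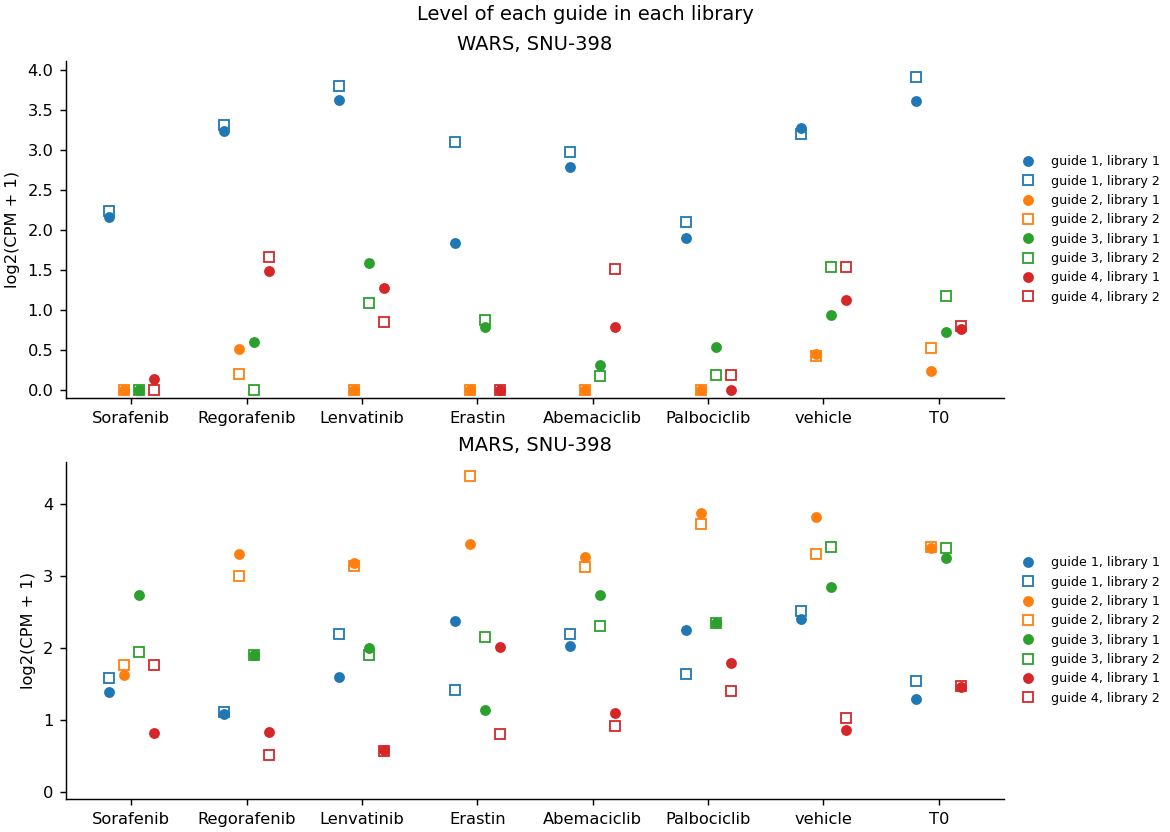
Level of each guide of WARS (top) and MARS (bottom) in the SNU-398 libraries, as log2(CPM + 1), by group, with filled circles for library 1 and open squares for library 2. Guide 1 of WARS is lower with Sorafenib and Palbociclib than with vehicle in both libraries, and its Erastin libraries differ from each other (2.56 and 7.52 CPM); guides 1 and 3 of MARS are lower with Sorafenib and Regorafenib than with vehicle.

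Of the mitochondrial enzymes, MARS2 was lower in SNU-398 with Lenvatinib (NormZ -3.18). Guide 4 was at 2.92 and 5.17 CPM with Lenvatinib, against 13.7 and 15.1 CPM with vehicle, and guide 1 at 1.75 and 2.34 CPM, against 5.55 and 8.82 CPM. Both guides were lower in both libraries, and the call held in each alternative tried. Its 6 inhibitor scores in SNU-398 were all below 0 (-0.86 to -3.18). In Hep3B, MARS2 reached 2.24 with Regorafenib, short of the limit, and in SNU-398 -1.66, a difference of 3.90 (adjusted p = 0.715).

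VARS2 was lower in SNU-398 with Erastin (NormZ -2.97) and Regorafenib (-2.43). Guide 2 was at 0.720 and 0.0928 CPM with Erastin and at 0 in both libraries with Regorafenib, against 5.91 and 5.71 CPM with vehicle. The same guide was at 0.565 and 0.147 CPM at T0, nearer to its levels with Erastin and Regorafenib than to those with vehicle. The T0 comparison gave VARS2 the highest score of the 36 genes in that line (2.07), which did not pass. With the other inhibitors VARS2 scored -0.15 (Sorafenib), -2.07 (Lenvatinib), -0.03 (Abemaciclib) and 0.53 (Palbociclib) there. Why the vehicle level differed from T0 was not tested. Without Erastin library 2 the Erastin score was -1.79 and did not pass, and without the first libraries the Regorafenib score was -2.29.

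In Hep3B, HARS2 (NormZ -2.68) and LARS2 (-2.67) were lower with Erastin. Guide 1 of HARS2, with 97.4% of its vehicle counts, was at 34.8 and 38.5 CPM with Erastin, against 67.4 and 72.8 CPM with vehicle. It was also at 33.0 and 32.9 CPM with Abemaciclib, where the score of -1.63 did not pass. Guide 3 of LARS2, the leucine enzyme of mitochondria, was at 2.85 and 2.36 CPM with Erastin, against 15.96 and 18.0 CPM with vehicle, and guide 2 at 2.41 and 2.83 CPM, against 5.54 and 4.79 CPM. LARS2 was below 0 with each of the 6 inhibitors (-0.87 to -2.67). Among guides with at least 30 counts neither call held (-1.76 for HARS2 and -2.13 for LARS2).

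IARS was lower in Hep3B with Lenvatinib (NormZ -2.57) and below 0 with each of the 6 inhibitors (-0.96 to -2.57). Its guide 3 was at 0 in both Lenvatinib libraries, against 6.52 and 7.11 CPM with vehicle, and at no more than 2.54 CPM with each other inhibitor. Its guide 4, at 8.80 and 10.3 CPM with Lenvatinib, was at 14.9 and 15.4 CPM with vehicle. The call ended among guides of at least 30 counts (-1.82). All 4 guides of IARS reached that mean count with vehicle, so only guides of other targets were left out there. Members below 0 with every inhibitor were 4 of 20 cytosolic and 3 of 16 mitochondrial in Hep3B, where 15.6% of all targets were, and 3 of 20 and 3 of 16 in SNU-398, where 8.44% of all targets were. Members above 0 with every inhibitor were 4 of 20 cytosolic and 2 of 16 mitochondrial in Hep3B, where 21.3% of all targets were, and 1 of 20 and 0 of 16 in SNU-398, where 11.4% of all targets were.

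QARS was the 1 member called higher. Its NormZ was 2.35 with Lenvatinib in Hep3B. Guide 1, with 91.7% of the vehicle counts, was at 96.4 and 101 CPM with Lenvatinib, against 73.3 and 68.9 CPM with vehicle, and guide 2 at 27.1 and 22.4 CPM, against 6.68 and 6.12 CPM. Both guides were higher in both libraries, yet the call ended with a pseudocount of 1 (2.26), among guides of at least 30 counts (2.05) and without the second libraries (2.14). Just outside the limit were WARS2 with Sorafenib in Hep3B (-2.32) and, in SNU-398, FARS2 with Palbociclib (-2.31), HARS with Regorafenib (-2.31) and EARS2 with Lenvatinib (-2.29). SARS, which feeds the selenocysteine pathway, scored between -1.49 and 0.01 with the inhibitors in Hep3B and between -1.68 and 0.90 in SNU-398.

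Counts summed per gene were also tested with edgeR over all 16 libraries of a line, at an adjusted p under 0.05. This test called large shares of all targets: in the inhibitor screens of Hep3B 37.5% lower and 32.8% higher, and in vehicle over T0 33.5% lower and 29.1% higher. In SNU-398 it called 15.1% lower and 13.3% higher in the inhibitor screens, and 6.75% lower and 6.36% higher in vehicle over T0. Of the synthetases in Hep3B it called 50 cytosolic pairs lower and 26 higher of 120, and 52 mitochondrial pairs lower and 13 higher of 96. In SNU-398 it called 29 cytosolic pairs lower and 14 higher, and 25 mitochondrial pairs lower and 8 higher. In vehicle over T0 it called 9 cytosolic genes lower and 3 higher and 11 mitochondrial genes lower and 1 higher in Hep3B. In SNU-398 it called 5 cytosolic genes lower and 1 higher, and 3 mitochondrial genes lower and 1 higher. All 18 calls by NormZ were called by edgeR in the same direction, against that background.

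The difference between lines was tested for each of the 36 genes in each of 7 comparisons. Of these 252 differences, 14 had an unadjusted p under 0.05 and 0 passed after adjustment over all targets, the smallest adjusted p being 0.715. A synthetase called in 1 line alone is thus not shown to differ from the other line.

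Over all targets, 1.77% of inhibitor pairs were lower and 0.824% higher in Hep3B, and 1.59% and 0.854% in SNU-398. Of the neighbouring lists, the selenocysteine list had 7 of 42 inhibitor pairs lower in Hep3B and 5 of 42 in SNU-398. All of them were of PSTK or SEPSECS, the enzyme that completes selenocysteine after PSTK. The Erastin calls of both in SNU-398 held without library 2 (NormZ -5.20 and -3.01). PSTK is the gene the study selected from these screens, so that count is no independent evidence. The scaffold genes gave no call in 18 inhibitor pairs of either line (median NormZ 0.23 in Hep3B and 0.47 in SNU-398, with 1 pair higher at an unadjusted p under 0.05 in each), but AIMP2 was higher in Hep3B with vehicle over T0 (2.73). Of the mitochondrial partners, 14 of 16 were targeted, and QRSL1, a subunit of the enzyme that makes mitochondrial glutaminyl-tRNA, was lower with Palbociclib in Hep3B (-2.65), while MTO1, which modifies mitochondrial tRNA, was lower with vehicle over T0 in the same line (-3.56). EEF1A1 was lower in SNU-398 with Sorafenib (-3.17), Regorafenib (-2.36) and Abemaciclib (-2.54), XPOT was higher with Erastin (3.12, but 1.90 and not called without library 2), and ELAC2, which trims tRNA ends, was lower in Hep3B with Lenvatinib (-2.41). Of the amino acid response, 3 of 120 pairs were lower in Hep3B, all of SESN2, and 4 were lower and 4 higher in SNU-398, among them ATF4 with Erastin (-2.70, and -2.51 without library 2) and DDIT3 with Sorafenib (3.37).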

How the data were processed

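The members, lists and named genes were chosen with earlier results of these data known. Per the labels and methods, the authors deposited counts per guide made with Bowtie2, whose version is not given in the sources used here, and counts per gene, for which the submitters' processing notes name HISAT2 2.0.5 as well as featureCounts 1.5.0-p3. The authors also deposited FPKM. The deposited signal columns (the authors' group means), log2 fold changes and p-values belong to the authors' own comparison and were not used. The labels name mm9, while gene identifiers and positions are human Ensembl on GRCh38. Guide positions were not used.

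RNA-seq counts were tested in R 4.3.3 with edgeR 4.0.16 (TMM, filterByExpr, quasi-likelihood test, Benjamini-Hochberg over 15370 genes, adjusted p under 0.05). CPM used TMM-scaled library sizes (factors 1.02 to 1.03 in PSTK-KO and 0.973 to 0.980 in control). A count of 0 allows up to 0.178 to 0.195 CPM (3 counts, counting error only).

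NormZ followed the steps of DrugZ in Python 3.11.15 (numpy 2.4.6, scipy 1.17.1, pandas 2.3.3): counts scaled to 1e+07 per library, a pseudocount of 5, the standard deviation from windows of 1000 guides, libraries paired by number. Line differences were NormZ differences against their normal spread, two-sided. Alternatives used limma 3.58.1 on log2(FPKM + 1), DESeq2 1.42.0, RLE scaling, no filter, a replicate block, library totals without TMM (chosen after the data were seen), and for the screens a pseudocount of 1, median-of-ratios scaling, guides with a mean reference count of at least 30, no pairing, and edgeR on counts summed per gene. In the RNA-seq each library was left out in turn. In the screens library 1 or library 2 was left out of both groups of a comparison, which left 1 library in each. SNU-398 Erastin was also scored without library 2. Named were the 12 members of each class with the smallest adjusted p in the RNA-seq, with SARS, SARS2 and MARS always, in the screens every member past p under 0.01, the 4 lowest and 2 highest per line in vehicle over T0, and guides of 8 members. The guides of QARS, RARS2, YARS and AARS, the screen scores of SARS and the list genes were chosen after their values were seen. The scripts were tested on simulated data. Promoters are from RefSeq, of which 30 of 36 members matched. Figures used matplotlib 3.10.9.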

Additional observations from a re-analysis of the deposited data

How the results depend on the processing

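In the RNA-seq, 8 of the 10 cytosolic genes called higher (WARS, MARS, CARS, GARS, TARS, YARS, AARS and SARS) and QARS, CARS2 and IARS2 passed under each alternative tried. Leaving out 1 library in turn gave 9 to 11 cytosolic genes higher, 1 to 2 lower (2 without control library 3, where VARS passed at an adjusted p of 0.0485), 0 to 2 mitochondrial genes higher and 2 to 4 lower. DESeq2 called 1 mitochondrial gene higher. The shares of all genes called under these alternatives are not given here, so the counts describe the members alone. Without TMM, which moves the median of all genes by 0.07, LARS2 stood at 0.0072 in place of -0.06, and YARS2 passed (adjusted p = 0.0354). Leaving out 1 library in turn, FARS2 ranged from -0.23 to 0.059, above 0 without PSTK-KO library 3. With a replicate block the counts were 10 and 1 cytosolic and 2 and 3 mitochondrial, as without it, and no named call changed. The equal numbers are no pairs by the check of deviations (correlations of 0.03, 0.10 and 0.00 in the RNA-seq). Nor are they in the screens (-0.01 to 0.02), where no replicate block gave 4 mitochondrial pairs lower in SNU-398 in place of 3 and left the other counts as they were.

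In Hep3B, edgeR on summed counts called 50 cytosolic pairs lower and 26 higher, and 52 mitochondrial pairs lower and 13 higher. Of all pairs there, 37.5% were lower and 32.8% higher. In vehicle over T0 it called 9 and 3 cytosolic and 11 and 1 mitochondrial genes, against 33.5% and 29.1% of all targets. In SNU-398 these counts were 29 and 14, 25 and 8, 5 and 1, and 3 and 1. The shares over all targets were 15.1% and 13.3% of pairs, and 6.75% and 6.36% over T0. With a pseudocount of 1, the Hep3B counts became 0 cytosolic pairs higher and 1 mitochondrial gene lower over T0, and the SNU-398 counts 5 mitochondrial pairs lower, 1 cytosolic gene lower and 0 mitochondrial genes lower over T0. Median-of-ratios scaling gave 2 cytosolic genes lower over T0 in Hep3B. With guides of at least 30 counts, 0 mitochondrial pairs were lower in Hep3B and 6 in SNU-398. Without 1 of the 2 libraries of each group, the Hep3B counts were 0 to 1 cytosolic pairs higher, 0 to 1 mitochondrial pairs higher, 1 mitochondrial gene lower and 0 to 1 higher over T0. In SNU-398 they were 3 to 6 cytosolic and 2 to 4 mitochondrial pairs lower, and over T0 1 to 3 cytosolic and 0 to 2 mitochondrial genes lower. Without Erastin library 2, SNU-398 had 4 cytosolic and 2 mitochondrial pairs lower. Of the 18 named screen calls, 9 ended with guides of at least 30 counts, 6 with a pseudocount of 1, and 5 each without library 1 or 2. Under the alternatives other than edgeR, the shares of all targets are not given here, so these counts describe the members alone. The causes were not tested. Low guide counts and single dominant guides limit the precision of the screens.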
